A study of Mus musculus with 33 samples.

Results

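The 10 genes described here were Fos, Fosb, Jun, Junb, Jund, Nr4a1, Nr4a2, Nr4a3, Egr1 and Egr2, a set of immediate early genes of the AP-1, NR4A and EGR families. They were taken by symbol from the 31054 features of the gene count tables, where each symbol matched 1 row. Their levels were followed over 33 bulk RNA-Seq libraries, 3 for each of 11 cell subsets sorted from DEREG mice. These mice are on a C57BL/6 background and carry the diphtheria toxin receptor and enhanced GFP under the Foxp3 promoter, so that GFP marks regulatory T cells (Tregs). Naive mice had no transplant and no treatment. Tolerant mice carried clusters of porcine neonatal islet cells under the renal capsule and had been given MR-1, an antibody against CD154, with CTLA4-Fc, and their cells were taken at day 100.

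From the spleen of naive mice came SP/naive Tregs, SP/naive CD4+ cells (CD4+ without GFP) and SP/naive CD45+CD4- cells, which were left after depletion of CD4+ T cells and hold the other leukocytes of the spleen. The spleen of tolerant mice gave SP/CD127hi and SP/CD127-/lo Tregs, SP/tolerant CD4+ cells and SP/tolerant CD45+CD4- cells. Graft Tregs came from the islet grafts of tolerant mice. Lymph nodes gave DLN/naive Tregs of naive mice, and DLN/CD127hi and DLN/CD127-/lo Tregs of the graft-draining nodes of tolerant mice. CD127 is the receptor chain for IL-7 encoded by Il7r. Each library is described as a pool of several mice, and the naive mice were too few for separate pools, so that p-values measure the spread between these libraries, which may be technical. Spleen, node and graft were dissociated in different ways, and tissue and dissociation cannot be told apart. All tolerant mice carried the graft and both agents, so that these cannot be told apart either. According to the methods, the tolerant mice and the naive mice for spleen were male and the naive mice for lymph nodes female, so that every comparison of tolerant Tregs with DLN/naive Tregs is also one of sex.

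Immediate early genes are transcribed within minutes of a signal, without new protein synthesis, and most of their transcripts decay quickly. In T cells, engagement of the antigen receptor reaches them through MAP kinases, which act on serum response factor and its partners, and through calcium, calcineurin and NFAT. The FOS proteins pair with the JUN proteins to form AP-1, which binds DNA through basic leucine zippers, JUN proteins can also pair among themselves, and JUNB and BATF partners are used in activated T cells and effector Tregs. The NR4A proteins are orphan nuclear receptors that act without a known hormone. They follow the strength of antigen receptor signals and take part in Treg development. EGR1 and EGR2 are zinc finger factors, of which EGR2 is known for a part in T cell anergy. Handling of tissue before lysis is also known to induce genes of this kind.

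Positions are those of GRCm38. Fos spans chr12:85473890-85477273 on the plus strand and Fosb chr7:19302696-19310051 on the minus strand. Jun spans chr4:95049034-95052222 on the minus strand, Junb chr8:84974484-84978718 on the minus strand and Jund chr8:70698949-70700616 on the plus strand. Nr4a1 spans chr15:101254269-101274795 on the plus strand, Nr4a2 chr2:57106830-57124003 on the minus strand and Nr4a3 chr4:48045153-48086447 on the plus strand. Egr2 spans chr10:67535475-67542188 on the plus strand, and the position of Egr1 is not given here. All 10 are protein coding, and values are counts over their exons. Exons of Jun, Junb and Jund are overlapped on the other strand by Junos, Prdx2 and Gm11175, with 7.28%, 7.52% and 52.6% of their exon bases. Counting without regard to strand gave 2089 reads for Jund over all libraries and 7349 for Junb, and counting on each strand and adding gave 2499 and 8062. The other genes had equal sums, except Jun with 1256 and 1264. Reads of Jund and Junb and of their opposite partners cannot be told apart in the column used, and the values of both are therefore uncertain. Where adding the strands ends a separation of their libraries, this is said beside it.

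The regions before the starts of Fos, Fosb, Junb and Nr4a3 are shown because the tests below turn on these genes. They were read from RefSeq on GRCm38.p6 and end at the base before the annotated gene start. Capitals mark TATAAA, GCGNGGGCG (the site of EGR factors) and TGACG (the core of the cyclic AMP response element) on either strand. Fos is chr12:85473640-85473889 on the plus strand, Fosb chr7:19310052-19310295 on the minus strand, Junb chr8:84978719-84978998 on the minus strand and Nr4a3 chr4:48045055-48045152 on the plus strand.
Fos: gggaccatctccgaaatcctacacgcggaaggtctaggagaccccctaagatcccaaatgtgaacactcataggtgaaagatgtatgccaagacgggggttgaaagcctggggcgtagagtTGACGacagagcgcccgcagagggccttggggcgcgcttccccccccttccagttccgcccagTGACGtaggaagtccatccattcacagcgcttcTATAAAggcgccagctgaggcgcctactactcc
Fosb: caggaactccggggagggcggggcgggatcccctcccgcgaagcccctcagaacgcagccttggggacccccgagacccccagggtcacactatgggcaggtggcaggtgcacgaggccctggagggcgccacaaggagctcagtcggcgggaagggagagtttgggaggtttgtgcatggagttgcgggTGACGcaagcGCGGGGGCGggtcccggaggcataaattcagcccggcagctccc
Junb: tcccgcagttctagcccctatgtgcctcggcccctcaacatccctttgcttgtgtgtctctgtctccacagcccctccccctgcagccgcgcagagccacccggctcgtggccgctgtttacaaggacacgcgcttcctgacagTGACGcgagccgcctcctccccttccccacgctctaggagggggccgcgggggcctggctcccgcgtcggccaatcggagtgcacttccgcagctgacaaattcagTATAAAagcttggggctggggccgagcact
Nr4a3: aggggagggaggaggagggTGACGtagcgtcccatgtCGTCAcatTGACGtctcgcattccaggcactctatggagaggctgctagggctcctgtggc

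Windows of 300 bases, 250 before and 50 after the RefSeq start, were held for 9 of the 10 genes and searched on both strands. TGACG was found in 6 of the 9 (Fos, Fosb, Junb, Nr4a1, Nr4a2 and Nr4a3) and in 20.8% of 32851 windows of all genes, but this motif was chosen after the windows had been read. The full element TGACGTCA, which contains the core, was in 0 of 9 and in 1.79% of all windows. The EGR site was in 3 of 9 (Fosb, Nr4a1 and Nr4a2) against 5.55%, TATAAA in 3 of 9 (Fos, Junb and Nr4a2) against 13.6%, and GGGCGG, the site of SP1, which can overlap the EGR site, in 7 of 9 against 35.7%. In Fos, TATAAA began at position -33. The AP-1 site TGANTCA was in 0 of 9 against 7.81%, the NR4A site AAAGGTCA in 0 of 9 against 1.51%, and the CArG box of serum response factor in 0 of 9 against 1.63%. The windows of Jund and Nr4a1 lie 1210 and 12577 bases from the gene start of the count annotation and describe another start of these genes.

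Sex was checked by Xist and by 4 Y-linked genes (Ddx3y, Eif2s3y, Kdm5d and Uty). DLN/naive replicates 1 and 2 had 404.7 and 458.9 CPM of Xist and 3.55 and 16.1 CPM of the Y-linked genes together, while replicate 3 had 1.24 CPM of Xist and 504.3 CPM of the Y-linked genes. The other 30 libraries had at most 5.41 CPM of Xist and 506.8 to 1294 CPM of the Y-linked genes. DLN/naive replicate 3 therefore goes against the sex given for its group, and the Nr4a3 call that rests on DLN/naive Tregs is given below with and without it.

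Library depth and the sorted markers were checked next. Read pairs on genes ranged from 2550698 to 4615283 in the 24 spleen and graft libraries, sequenced on a NextSeq, and from 844039 to 1935323 in the 9 DLN libraries, which were run on a MiSeq, and node and sequencer therefore cannot be told apart. A count of 0 allows up to 3 counts, which is 0.650 to 1.18 CPM (counts scaled to a common library size) in spleen and graft and 1.55 to 3.55 CPM in the DLN, for counting error only. Foxp3 was at 165.7 to 672 CPM in the 21 Treg libraries and at most at 8.20 CPM in the others. Il7r was at 1082 to 1236 CPM in SP/CD127hi against 269.5 to 359.7 CPM in SP/CD127-/lo Tregs, but at 476 to 678 CPM in DLN/CD127hi against 265.5 to 783.5 CPM in DLN/CD127-/lo Tregs, which overlap, so that the sort by CD127 protein is not visible in Il7r of the DLN. B cell markers summed to 180.4 to 551 CPM in DLN/CD127hi, 78.5 to 229 CPM in DLN/CD127-/lo and 12.6 to 55.4 CPM in DLN/naive Tregs. Their part in the levels below was not tested.

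In spleen Tregs the 10 genes together were higher in tolerant than in naive mice. Their summed level was 139.9, 216.2 and 195.7 CPM in the 3 SP/naive libraries, 468.4, 383.7 and 424.2 CPM in SP/CD127-/lo and 511.4, 369.1 and 504.6 CPM in SP/CD127hi. Every library of both tolerant spleen subsets lay above every SP/naive library. The 8 macrophage markers summed to 145 to 246 CPM in SP/CD127hi Tregs, above the 27.0 to 123.1 CPM of SP/naive Tregs, and to 8.30 to 308.5 CPM in SP/CD127-/lo Tregs, which overlapped both. The mitochondrial share of reads was 2.71% to 3.53% in SP/CD127hi, above the 1.81% to 2.42% of SP/naive Tregs, and 2.33% to 4.35% in SP/CD127-/lo Tregs, which overlapped both. The part of either was not tested. Graft Tregs gave 140.3, 332.6 and 88.2 CPM, below every SP/CD127hi and SP/CD127-/lo library, and replicate 3 was below every SP/naive library while replicate 2 was above them. The sum is a description without a test, and it weighs Junb and Egr1 most.

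**Figure D1:**
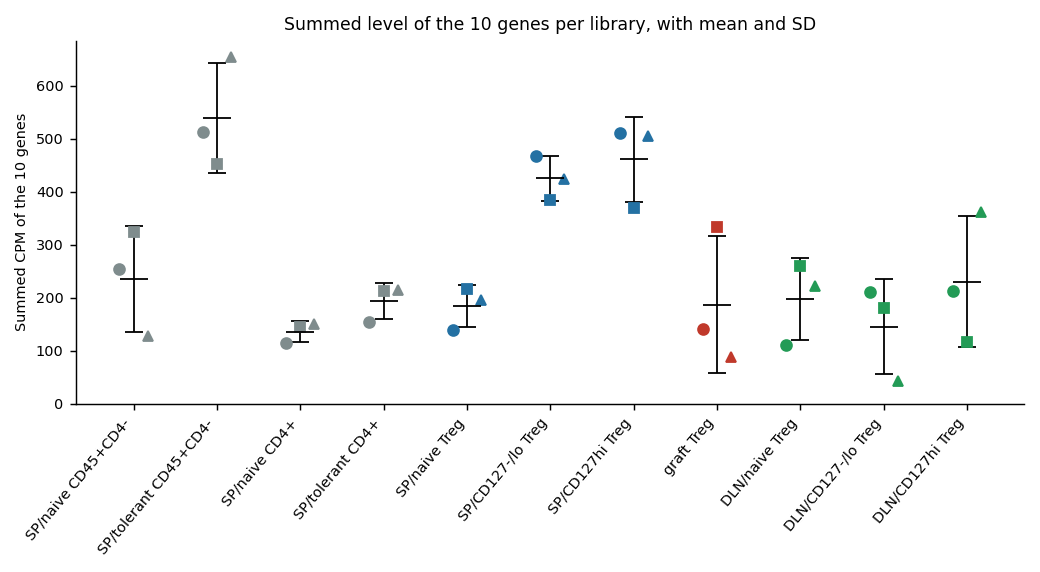
Summed CPM of the 10 genes (y axis) in each library of the 11 subsets (x axis), with the mean and SD of 3 libraries. Circles, squares and triangles are replicates 1, 2 and 3, with graft Tregs in red, spleen Tregs in blue, DLN Tregs in green and Foxp3- cells in grey, and the SP/CD127-/lo and SP/CD127hi libraries lie from 369.1 to 511.4 CPM, above the SP/naive range of 139.9 to 216.2 CPM.

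A similar step was seen in the CD45+CD4- cells. Their sum was 253.3, 324.8 and 127.2 CPM in naive and 512.4, 452.9 and 654.7 CPM in tolerant mice, which did not overlap. The CD4+ cells gave 113.5, 143.8 and 150.1 CPM in naive and 155.0, 212.0 and 214.0 CPM in tolerant mice, also apart but by less. Macrophage markers of the CD4+ cells summed to at most 4.12 CPM in naive and to 15.5 to 30.2 CPM in tolerant mice, without overlap. Il2ra, a gene of Tregs and activated T cells, was called higher in the latter (241 against 6 reads), and the B cell genes Ebf1 and Ms4a1 lower (6 against 184 and 8 against 110 reads). The 6 B cell markers together overlapped, at 1.175 to 96.1 CPM in naive and 2.99 to 8.50 CPM in tolerant CD4+ cells. The part of all these genes in the step of the CD4+ cells was not tested. Cell type markers also moved with the step of the CD45+CD4- cells. In tolerant against naive CD45+CD4- cells, 6 B cell markers summed to 5119 to 6521 against 2946 to 4639 CPM and 6 T cell markers to 862 to 1164 against 1487 to 2552 CPM, both without overlap. Sums of 3 neutrophil markers (343.9 to 2706 against 34.8 to 583 CPM) and of 8 macrophage markers (352.6 to 941 against 96.2 to 479 CPM) overlapped. The part of such cells in the sum was not tested. In bulk libraries, fewer cells with a transcript and less transcript per cell cannot be told apart.

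The single genes were sparse. Fosb was at 0 in 16 of 33 libraries, Nr4a2 in 14, Fos in 10, Egr2 in 4, Jun and Nr4a3 in 3 each and Egr1 in 2, while Junb, Jund and Nr4a1 had counts in every library. Within a subset the SD was between 4.13% and 173% of the mean. Per kilobase of exon, the mean level over the 24 spleen and graft libraries was highest for Junb at 35.9 CPM, followed by Jund at 14.1, Fos at 13.4, Egr1 at 11.5 and Nr4a1 at 10.2 CPM. Nr4a3, Jun, Egr2 and Nr4a2 lay between 4.60 and 2.95 CPM per kilobase, and Fosb, with 0.391, was lowest. By the median over the same libraries the order was Junb at 26.6, Egr1 at 11.5, Jund at 10.5, Nr4a1 at 8.77 and Fos at 6.89. Every level below is a CPM scaled by the TMM method and not divided by length.

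**Figure D2:**
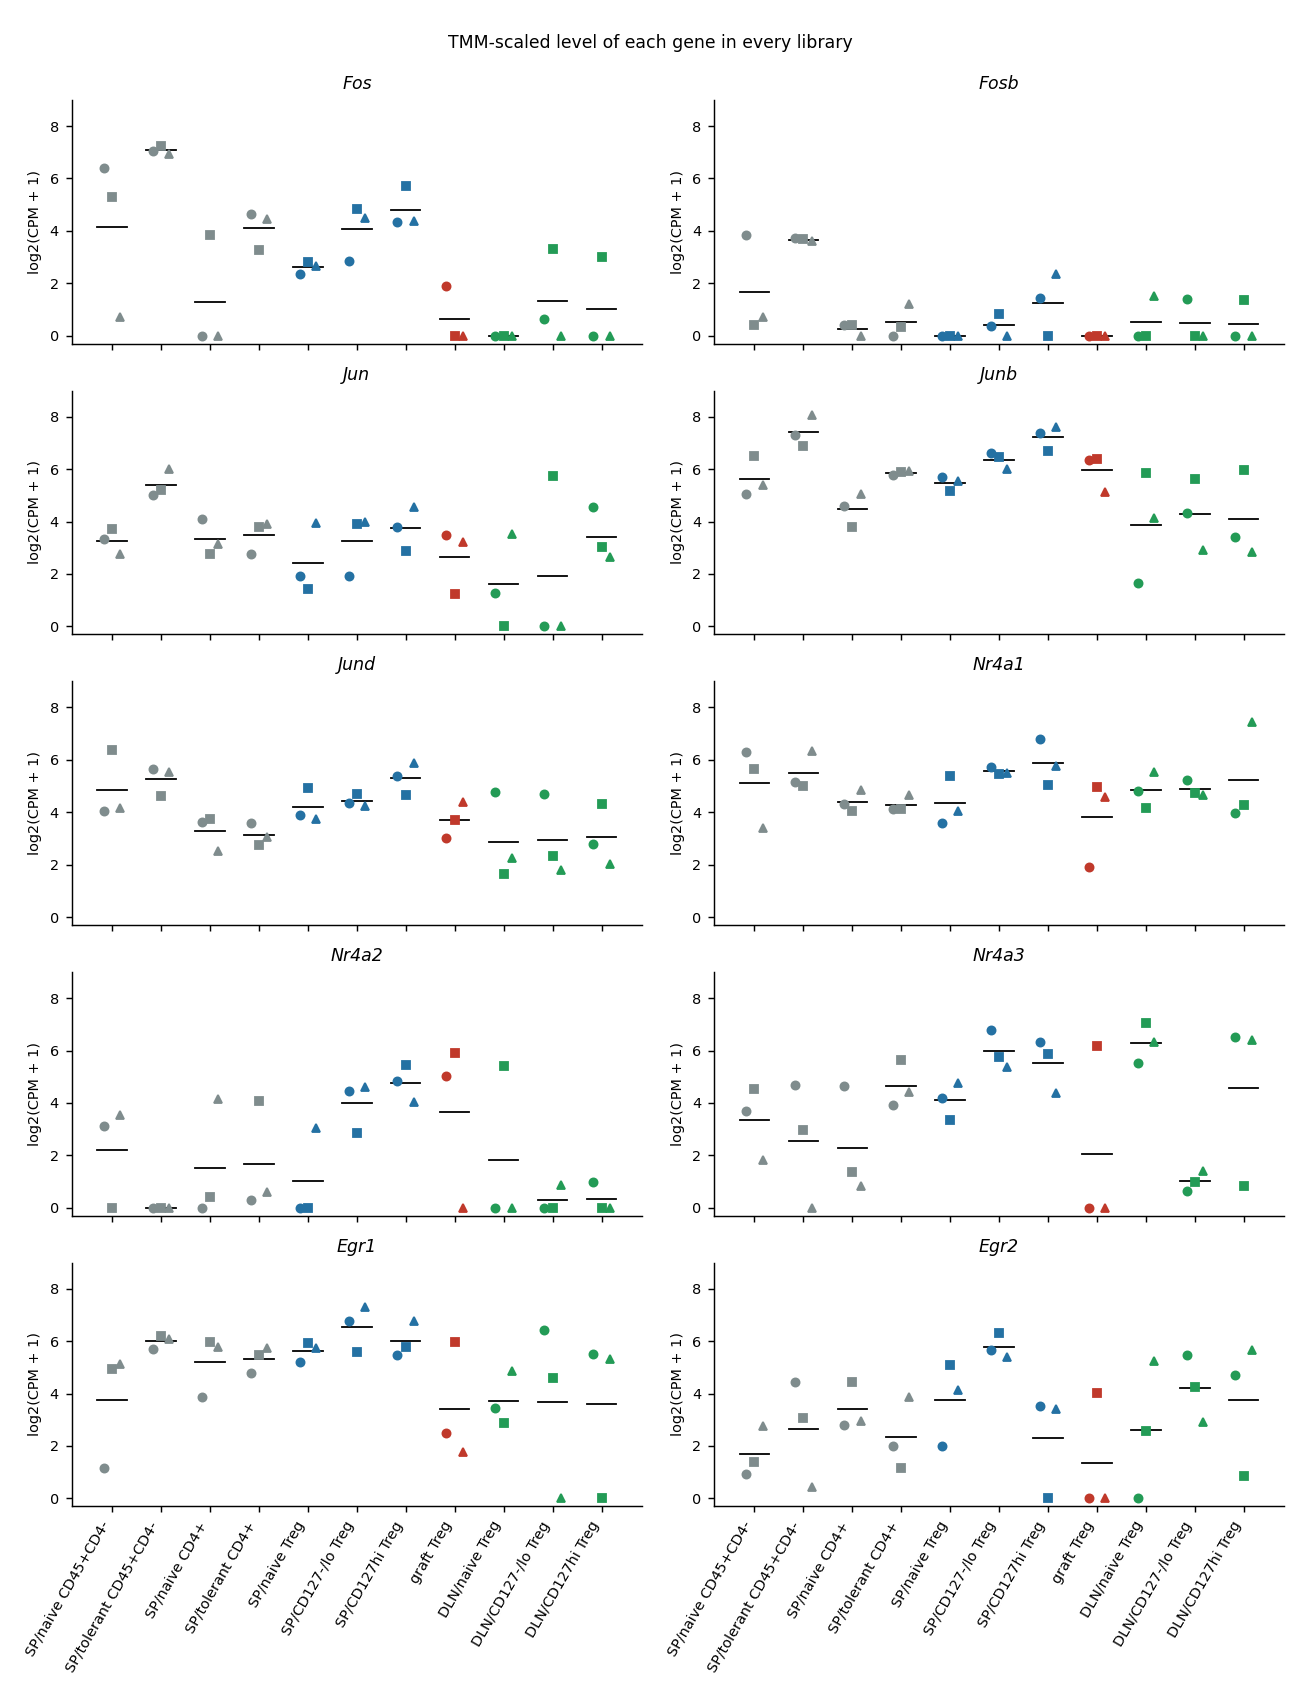
Level of each of the 10 genes as log2(CPM + 1) (y axis) in the 33 libraries, by subset (x axis), with the mean of 3 libraries as a line. Circles, squares and triangles are replicates 1, 2 and 3 in the colors of the plot of summed CPM, and Fosb and Nr4a2 show the most libraries at 0 (16 and 14 of 33).

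Fos, the founding partner of JUN in AP-1, had its highest levels outside the Tregs. In SP/tolerant CD45+CD4- cells it was at 132, 148 and 122 CPM in replicates 1, 2 and 3, against 83.4, 38.5 and 0.644 CPM in SP/naive CD45+CD4- cells. SP/tolerant CD4+ cells had 24.2, 8.72 and 20.9 CPM and SP/naive CD4+ cells 0, 13.3 and 0 CPM. The tolerant CD45+CD4- libraries were above all others, whereas the CD4+ subsets overlapped through replicate 2. Among spleen Tregs, Fos was at 4.13, 6.09 and 5.30 CPM in SP/naive, 6.22, 27.7 and 21.7 CPM in SP/CD127-/lo and 19.1, 50.8 and 19.97 CPM in SP/CD127hi. Graft Tregs had 2.71, 0 and 0 CPM, from 10 reads in replicate 1. All tolerant spleen Treg libraries thus lay above the naive ones and all graft libraries below every spleen Treg library. The first of these depended on the scaling. Without TMM, SP/CD127-/lo replicate 1 was at 5.26 CPM, below the 6.60 CPM of SP/naive replicate 2.

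In the lymph nodes Fos was nearly absent. It had 0 counts in the 3 DLN/naive libraries, 1, 9 and 0 counts in DLN/CD127-/lo and 0, 9 and 0 counts in DLN/CD127hi Tregs. The single library with 9 counts in each tolerant subset was replicate 2. By mean, the order of the subsets was SP/tolerant CD45+CD4-, SP/naive CD45+CD4-, SP/CD127hi, SP/CD127-/lo and SP/tolerant CD4+, then SP/naive Tregs, SP/naive CD4+, the 2 tolerant DLN subsets, graft and DLN/naive Tregs. Only the first and second and the fifth and sixth of these neighbors did not overlap.

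Across the 8 spleen and graft subsets, Fos differed with an adjusted p of 0.00162 in edgeR's quasi-likelihood test, as did 13.4% of the 25347 genes tested. Among the 4 spleen and graft Treg subsets alone it did not pass, with an adjusted p of 0.164, and 1.57% of all genes did. Its log2 fold change was -4.98 (SE 1.57) in graft against SP/CD127hi Tregs, with an adjusted p of 0.250 in the quasi-likelihood test, and -4.28 (SE 1.53) in graft against SP/CD127-/lo Tregs, with an adjusted p of 0.342. With 1 library left out at a time, the joint test of the 4 Treg subsets gave an adjusted p of 0.0468 to 0.388. The lowest value, the single one to pass, came without graft replicate 1, the only graft library with Fos reads. The mitochondrial share of reads was 4.33% to 6.74% in graft and 1.81% to 4.35% in spleen Treg libraries, and its part in these differences was not tested.

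Fosb, which can replace Fos in AP-1, was low everywhere, with 209 reads in all. SP/tolerant CD45+CD4- cells had 12.2, 11.8 and 11.2 CPM, and SP/naive CD45+CD4- cells had 13.4, 0.326 and 0.644 CPM. Except for these cells, SP/CD127hi Tregs were highest, with 1.70, 0 and 4.05 CPM from 8, 0 and 14 reads. All SP/naive and graft Treg libraries were at 0. The tolerant CD45+CD4- libraries were alike, while replicate 1 alone carried the naive ones.

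In the other subsets Fosb had at most 5 reads in a library. SP/CD127-/lo Tregs had 1, 3 and 0 reads, SP/naive CD4+ cells 1, 1 and 0 and SP/tolerant CD4+ cells 0, 1 and 5. Tregs of DLN/naive had 0, 0 and 3 reads, of DLN/CD127-/lo 3, 0 and 0 and of DLN/CD127hi 0, 2 and 0. The 22 reads of SP/CD127hi Tregs came from 2 libraries, and replicate 3 held 14 of them. Fosb passed across the 8 spleen and graft subsets, with an adjusted p of 0.00962 in the quasi-likelihood test, but not in any pair of subsets, and all neighbors in its order overlapped.

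Jun, the partner of Fos that can also bind DNA as a homodimer, was highest in SP/tolerant CD45+CD4- cells, at 30.9, 35.7 and 62.8 CPM. SP/naive CD45+CD4- cells had 9.17, 12.1 and 5.80 CPM, SP/naive CD4+ cells 16.1, 5.70 and 7.84 CPM and SP/tolerant CD4+ cells 5.70, 12.7 and 14.2 CPM. The CD45+CD4- groups did not overlap and the CD4+ groups did. Spleen Tregs had 2.75, 1.69 and 14.4 CPM in SP/naive, 2.83, 14.1 and 14.7 CPM in SP/CD127-/lo and 12.7, 6.43 and 22.6 CPM in SP/CD127hi. Graft Tregs had 10.3, 1.37 and 8.34 CPM. These 4 subsets overlapped.

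DLN/naive Tregs had 1.42, 0 and 10.5 CPM of Jun, DLN/CD127-/lo Tregs 0, 51.8 and 0 CPM and DLN/CD127hi Tregs 22.4, 7.09 and 5.18 CPM. The mean of DLN/CD127-/lo Tregs therefore rests on replicate 2. Jun passed no test, and every neighbor in its order of subsets overlapped.

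Junb, the JUN member with the highest counts, had 3 to 786 reads per library. SP/CD127hi Tregs were at 166.8, 101.6 and 194 CPM, SP/CD127-/lo Tregs at 96.9, 87.6 and 63.3 CPM and SP/naive Tregs at 51.2, 34.9 and 46.2 CPM. These 3 subsets did not overlap in the column used. Graft Tregs, at 81.0, 82.3 and 34.3 CPM, lay below every SP/CD127hi library and overlapped the other 2. Both separations depended on the count column. With the strands added, SP/CD127-/lo replicate 3 was at 63.3 CPM, below the 65.3 CPM of SP/naive replicate 1, and graft replicate 1 at 111.3 CPM, above the 101.6 CPM of SP/CD127hi replicate 2. The log2 fold change of SP/CD127hi against SP/naive Tregs was 1.80 (SE 0.86), with an adjusted p of 0.908 in the quasi-likelihood test, so that it was not called.

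Among Foxp3- cells, SP/tolerant CD45+CD4- cells had 156.1, 116 and 266 CPM of Junb and SP/naive CD45+CD4- cells 31.8, 90.3 and 40.6 CPM. SP/tolerant CD4+ cells had 53.6, 58.6 and 59.2 CPM and SP/naive CD4+ cells 23.3, 12.7 and 32.1 CPM. In both pairs every tolerant library was above every naive one. The CD45+CD4- difference was 1.73 on the log2 scale (SE 0.86), with an adjusted p of 1 in the quasi-likelihood test. In the DLN, naive Tregs had 2.13, 56.8 and 16.8 CPM, DLN/CD127-/lo Tregs 19.1, 48.8 and 6.54 CPM and DLN/CD127hi Tregs 9.73, 61.5 and 6.22 CPM. Replicate 2 was highest in all 3 DLN subsets, and their means of 24.8 to 25.8 CPM were below those of all spleen Treg subsets.

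Against SP/naive CD4+ cells, Junb had a log2 fold change of 2.76 (SE 0.90) in SP/CD127hi Tregs, with an adjusted p of 0.209 in the quasi-likelihood test. In DESeq2 the adjusted p was 0.0236, and in a model of the 24 spleen and graft libraries alone it was 0.00390, so that the call depends on the model. In SP/CD127-/lo Tregs the difference was 1.86 (SE 0.87), with an adjusted p of 0.520. Across the 8 spleen and graft subsets Junb had an adjusted p of 0.0853 in the quasi-likelihood test, but 0.0306 in DESeq2 and 0.000873 in the model of the 24 libraries. By mean, only SP/CD127hi and SP/CD127-/lo Tregs were neighbors without overlap.

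Jund, the JUN member that is least dependent on stimulation, had 40.8, 24.2 and 57.9 CPM in SP/CD127hi, 19.2, 25.2 and 17.9 CPM in SP/CD127-/lo and 14.04, 29.1 and 12.4 CPM in SP/naive Tregs. Graft Tregs had 7.04, 12.1 and 19.96 CPM, below every SP/CD127hi library. The 3 spleen Treg subsets overlapped. SP/naive CD45+CD4- cells had 15.6, 81.2 and 17.1 CPM and SP/tolerant CD45+CD4- cells 48.9, 23.4 and 45.1 CPM. SP/naive CD4+ cells had 11.5, 12.4 and 4.70 CPM and SP/tolerant CD4+ cells 11.2, 5.73 and 7.21 CPM. Both Foxp3- pairs overlapped.

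In the DLN, Jund was carried by a single library in each subset. It was at 26.3, 2.10 and 3.72 CPM in DLN/naive, 25.1, 3.98 and 2.45 CPM in DLN/CD127-/lo and 5.84, 18.9 and 3.11 CPM in DLN/CD127hi Tregs. Jund passed no test, and its neighbors in the order of subsets all overlapped.

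Nr4a1, which encodes NUR77, the NR4A receptor most used as a readout of antigen receptor signals, had at least 10 reads in every library. SP/CD127-/lo Tregs had 52.6, 43.5 and 43.7 CPM, SP/CD127hi Tregs 110.4, 32.1 and 53.8 CPM and SP/naive Tregs 11.01, 41.3 and 15.7 CPM. Graft Tregs had 2.71, 30.2 and 23.2 CPM. Every SP/CD127-/lo library exceeded the naive ones, and every graft library was below both tolerant spleen subsets. Without TMM scaling, SP/naive replicate 2 was at 44.7 CPM, above the SP/CD127-/lo libraries at 44.5, 42.9 and 40.7 CPM. SP/naive CD45+CD4- cells had 78.2, 48.6 and 9.66 CPM, SP/tolerant CD45+CD4- cells 34.5, 31.3 and 80.8 CPM, SP/naive CD4+ cells 19.03, 15.5 and 27.8 CPM and SP/tolerant CD4+ cells 16.4, 16.2 and 24.2 CPM.

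DLN/naive Tregs had 27.0, 16.8 and 45.9 CPM of Nr4a1, DLN/CD127-/lo Tregs 36.5, 25.9 and 24.5 CPM and DLN/CD127hi Tregs 14.6, 18.1 and 175 CPM. Replicate 3 of DLN/CD127hi Tregs was the highest of all 33 libraries. Nr4a1 passed no test, and all neighbors in its order overlapped.

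Nr4a2, its family member known as NURR1, switched between counts and 0 within subsets. SP/CD127hi Tregs had 27.8, 42.9 and 15.3 CPM, SP/CD127-/lo Tregs 21.2, 6.29 and 23.2 CPM and SP/naive Tregs 0, 0 and 7.32 CPM. Graft Tregs had 32.0, 59.6 and 0 CPM. The SP/CD127hi libraries were all above the naive ones, and the graft held both the highest value of the 33 libraries and a 0. SP/tolerant CD45+CD4- cells had 0 reads in all 3 libraries against 7.64, 0 and 10.6 CPM in SP/naive CD45+CD4- cells, which were at least 6.84-fold higher at the limit of 3 counts.

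That difference had an adjusted p of 0.747 in the quasi-likelihood test, while DESeq2 gave an adjusted p of 8.62e-13 for the same counts. SP/naive replicate 2 was also at 0, so that the groups share this value. SP/naive CD4+ cells had 0, 0.317 and 16.9 CPM and SP/tolerant CD4+ cells 0.228, 15.95 and 0.515 CPM. DLN/naive Tregs had 0, 42.0 and 0 CPM, DLN/CD127-/lo Tregs 0, 0 and 1 read and DLN/CD127hi Tregs 1, 0 and 0 reads. Against DLN/naive Tregs the direction of Nr4a2 in the DLN thus rests on DLN/naive replicate 2, a library with Xist. Across the 8 spleen and graft subsets Nr4a2 had an adjusted p of 0.0519 in the quasi-likelihood test and 0.0456 in the likelihood ratio test.

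Nr4a3, which encodes NOR1, was the single member that the quasi-likelihood test called between a pair of subsets. DLN/CD127-/lo Tregs had 0.545, 0.996 and 1.64 CPM, from 1, 1 and 2 reads. DLN/naive Tregs had 44.7, 131 and 79.4 CPM, from 63, 187 and 128 reads. Every naive library was far above every DLN/CD127-/lo library, all of which were within the limit that a count of 0 allows. Summed over libraries the naive level was 86.3-fold higher, with an exact 95% counting interval of 33.4 to 318-fold that covers counting error only.

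In the quasi-likelihood test the log2 fold change of DLN/CD127-/lo against DLN/naive Tregs was -6.31 (SE 1.56), with an adjusted p of 0.0319. This was the 1 call in 180 tests of the 10 genes over 18 pairs of subsets, or 0.556%. Over the same pairs 0.0197% to 1.04% of the 25347 genes were called, and 0.355% in this pair. The call was lost without DLN/naive replicate 2 (adjusted p = 0.0551), without DLN/CD127-/lo replicate 1 (0.0621) or replicate 2 (0.163), in a model of the 9 DLN libraries alone (0.721) or of the compared libraries alone (0.757), with the stricter filter of at least 10 counts in 3 libraries (0.180) and with the strands added (0.0786). The log2 fold change was between -5.86 and -6.33 in these fits.

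The difference was as large without DLN/naive replicate 3 (log2 fold change -6.36, adjusted p = 0.0201 in the quasi-likelihood test) and with that library, the one of male pattern, as the only DLN/naive library (-6.20, adjusted p = 0.0578, where the lone library is assumed to vary like the others). The latter fit was chosen after seeing the data, and it missed the threshold.

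DLN/CD127hi Tregs had 89.6, 0.788 and 83.0 CPM of Nr4a3, from 92, 1 and 80 reads. Replicates 1 and 3 were in the range of DLN/naive Tregs and replicate 2 was in that of DLN/CD127-/lo Tregs. Against DLN/CD127-/lo Tregs the summed level was 53.9-fold higher (exact 95% counting interval 20.7 to 200), and the log2 fold change was 5.75 (SE 1.53), with an adjusted p of 0.0503 in the quasi-likelihood test. The adjusted p was 0.0116 to 0.809 over the other settings tried, lowest in DESeq2 and highest in a model of the 9 DLN libraries alone, and 0.00654 to 0.176 with 1 of the 6 compared libraries left out, so that the call depends on the model. The mitochondrial share of reads was 1.45% to 2.95% in DLN/CD127hi Tregs, above the 1.15% to 1.25% of DLN/CD127-/lo Tregs, and its part was not tested.

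In the spleen the CD127 subsets did not differ in this way. SP/CD127-/lo Tregs had 110.5, 53.3 and 40.8 CPM of Nr4a3, SP/CD127hi Tregs 78.3, 56.9 and 19.7 CPM and SP/naive Tregs 17.3, 9.14 and 26.0 CPM. All SP/CD127-/lo libraries were above the naive ones. Tested as an interaction, the CD127hi effect of the spleen less that of the DLN was -6.15 on the log2 scale (SE 1.90), with an adjusted p of 0.224 in the quasi-likelihood test, so that it was not called, and 0.118% of all genes were. Graft Tregs had 0, 71.1 and 0 CPM. Replicate 2 alone carried the graft, and without it Nr4a3 was called lower in graft than in SP/CD127hi and SP/CD127-/lo Tregs.

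SP/naive CD45+CD4- cells had 11.9, 22.2 and 2.58 CPM of Nr4a3 and SP/tolerant CD45+CD4- cells 24.9, 6.87 and 0 CPM. SP/naive CD4+ cells had 23.95, 1.58 and 0.784 CPM and SP/tolerant CD4+ cells 14.1, 49.1 and 20.3 CPM. Both pairs overlapped. By mean, DLN/naive Tregs were highest and DLN/CD127-/lo Tregs lowest, and all neighbors overlapped.

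**Figure D3:**
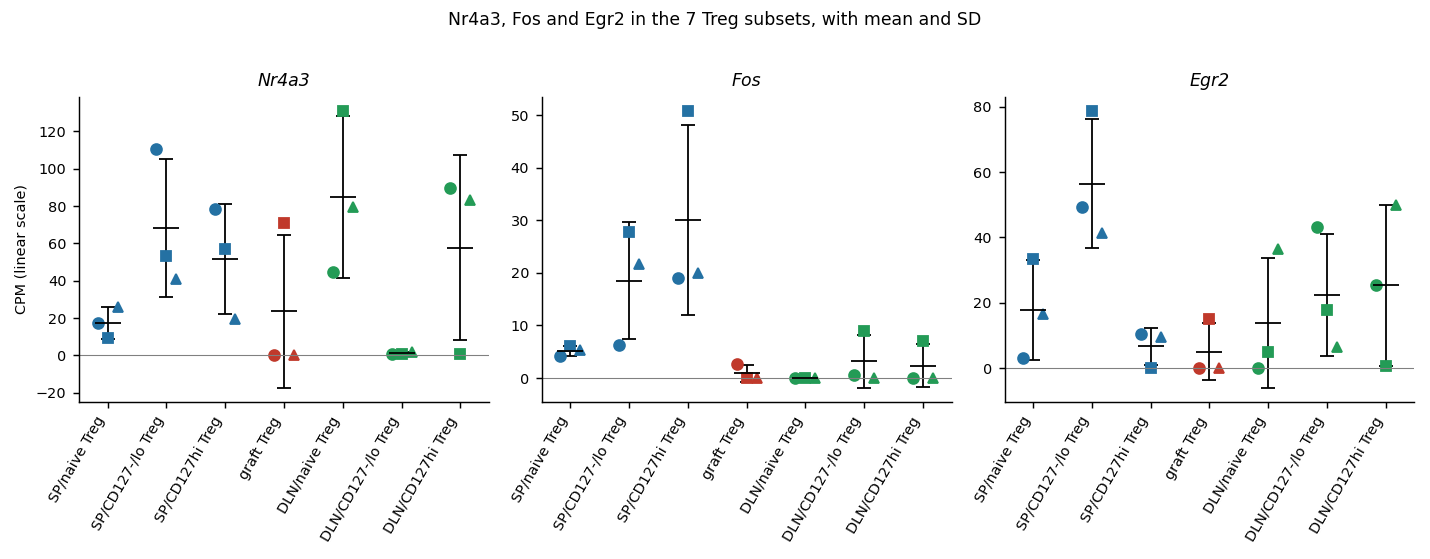
Level in CPM (y axis, linear) of Nr4a3, Fos and Egr2 in the libraries of the 7 Treg subsets (x axis), with mean and SD of 3 libraries. Circles, squares and triangles are replicates 1, 2 and 3, and the 3 DLN/CD127-/lo libraries lie at 0.545 to 1.64 CPM of Nr4a3, while graft Tregs have counts of Egr2 and Nr4a3 in replicate 2 only.

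Egr1, which binds GC-rich sites and is induced by MAP kinases, was highest in SP/CD127-/lo Tregs, at 109.6, 46.6 and 158 CPM. SP/CD127hi Tregs had 43.3, 54.2 and 108 CPM and SP/naive Tregs 36.3, 60.6 and 51.8 CPM. Graft Tregs had 4.60, 60.9 and 2.38 CPM. Replicates 1 and 3 of the graft lay below all spleen Treg libraries and replicate 2 within their range. The log2 fold change of graft against SP/CD127-/lo Tregs was -2.21 (SE 1.07), with an adjusted p of 0.597 in the quasi-likelihood test.

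SP/tolerant CD45+CD4- cells had 51.7, 71.7 and 66.2 CPM of Egr1 and SP/naive CD45+CD4- cells 1.22, 30.0 and 33.8 CPM, without overlap. SP/naive CD4+ cells had 13.5, 61.1 and 53.3 CPM and SP/tolerant CD4+ cells 26.7, 43.6 and 52.5 CPM. Of the DLN subsets, DLN/naive Tregs had 9.94, 6.31 and 27.9 CPM, DLN/CD127-/lo Tregs 85.0, 22.9 and 0 CPM and DLN/CD127hi Tregs 44.8, 0 and 39.4 CPM. The CD4+ groups and the DLN groups overlapped. Egr1 passed no test, and all neighbors in its order overlapped.

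Egr2 had counts in every SP/CD127-/lo library above those of SP/CD127hi Tregs. It had 49.2, 78.8 and 41.3 CPM in SP/CD127-/lo, 10.4, 0 and 9.55 CPM in SP/CD127hi and 3.03, 33.5 and 16.7 CPM in SP/naive Tregs. Graft Tregs had 0, 15.1 and 0 CPM. Every SP/CD127-/lo library was above every library of the other 3 subsets. Its log2 fold change was -3.07 (SE 1.59) in SP/CD127hi relative to SP/CD127-/lo Tregs, with an adjusted p of 0.752 in the quasi-likelihood test. For graft against SP/CD127-/lo Tregs it was -3.47 (SE 1.62), with an adjusted p of 0.552.

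SP/tolerant CD4+ cells had 2.96, 1.25 and 13.7 CPM of Egr2, SP/naive CD4+ cells 5.91, 20.9 and 6.66 CPM, SP/tolerant CD45+CD4- cells 20.99, 7.42 and 0.339 CPM and SP/naive CD45+CD4- cells 0.917, 1.63 and 5.80 CPM. DLN/naive Tregs had 0, 4.91 and 36.6 CPM, DLN/CD127-/lo Tregs 43.1, 17.9 and 6.54 CPM and DLN/CD127hi Tregs 25.3, 0.788 and 49.8 CPM. Levels overlapped in each of these pairs. Against SP/tolerant CD4+ cells, Egr2 was 3.24 higher on the log2 scale (SE 1.60) in SP/CD127-/lo Tregs, with an adjusted p of 0.664 in the quasi-likelihood test and 0.0209 in a model of the compared libraries alone. All neighbors in its order overlapped.

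Set side by side, both tolerant spleen Treg subsets gave positive fold changes against SP/naive Tregs for nearly all members, without a call. In SP/CD127hi against SP/naive Tregs, 9 of 10 log2 fold changes were positive, with a median of 1.55 against 0 over all genes. In SP/CD127-/lo against SP/naive Tregs 9 of 9 were positive, since Fosb, with 4 against 0 reads, had at most 3 reads in every library of both and has no direction. The fitted median was 1.37 over all 10. With Fosb at its bound (3 counts per library in place of 0) in the first pair and left out in the second, the medians were 1.34 and 1.08. These comparisons share the SP/naive libraries, so that they are not independent. Groups did not overlap for Nr4a2, Junb and Fos in the first pair and for Nr4a3, Egr2, Junb, Fos and Nr4a1 in the second, all of them higher in tolerant mice. In the second pair, however, Junb overlapped with the strands added, and Fos and Nr4a1 overlapped without TMM scaling. Over all genes tested, 3.58% and 4.02% lay above without overlap in these pairs.

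Calls were rare over all genes in these pairs. SP/CD127hi against SP/naive Tregs had 0.0197% of genes called and SP/CD127-/lo against SP/naive Tregs 0.071%. SP/CD127hi against SP/CD127-/lo Tregs had 0.0907%. The quasi-likelihood test called 0 of the 10 members in each of these 3, and so did the likelihood ratio test and DESeq2. In the quasi-likelihood test 2, 0 and 0 members had an unadjusted p under 0.05, beside 5.09%, 5.46% and 6.74% of all genes. In SP/CD127hi against SP/CD127-/lo Tregs the median over the members was 0.59, with Junb higher and Egr2 lower without overlap, beside 6.07% and 4.53% of all genes. T cell markers moved in this pair, with summed levels of 4041 to 4776 CPM in SP/CD127hi and 7076 to 10590 CPM in SP/CD127-/lo Tregs. Cd3g and Cd3d, chains of the antigen receptor complex, were called lower in SP/CD127hi Tregs, and the B cell gene Ms4a1 was called higher, with 340 reads against 1, while summed B cell markers overlapped. Genes with at least 1 read, 14475 to 16628 against 12527 to 13836, did not overlap either. The part of these was not tested. T cell markers of SP/CD127-/lo Tregs also lay above the 3875 to 6671 CPM of SP/naive Tregs.

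Graft Tregs were lower than SP/CD127hi Tregs in 9 of 10 members and lower than SP/CD127-/lo Tregs in 8 of 9, where Fosb, with 0 against 4 reads, again has no direction. The fitted medians over all 10 were -1.41 and -1.42, or -1.21 with Fosb at its bound and -1.31 with Fosb left out. The exception was Nr4a2 in both. These comparisons share the graft libraries. Against SP/CD127hi Tregs, Jund, Junb, Fos and Nr4a1 lay below without overlap, and against SP/CD127-/lo Tregs Egr2, Fos and Nr4a1 did, beside 5.34% and 4.05% of all genes. With the strands added, Junb overlapped in the first of these pairs. Against SP/naive Tregs the fitted median was -0.14, or -0.27 with Fosb, which had 0 reads in both, left out. Only Fos lay below without overlap in that pair, beside 5.15% of all genes. The quasi-likelihood test called 0 members in the 3 graft pairs, and so did the likelihood ratio test and DESeq2. Against SP/CD127hi, SP/CD127-/lo and SP/naive Tregs, the quasi-likelihood test had 2, 3 and 0 members at an unadjusted p under 0.05. Over all genes the shares under that p were 8.73%, 7.66% and 7.93%. Of all genes, 0.103%, 0.0829% and 0.13% were called. Kidney markers summed to 16.1 to 889 CPM in graft Tregs and at most to 3.67 CPM in spleen Tregs. Genes with at least 1 read numbered 11620 to 13838 in graft libraries, below the 14475 to 16628 of SP/CD127hi and overlapping the 12527 to 13836 of SP/CD127-/lo Tregs. The mitochondrial share of 4.33% to 6.74% in graft was above the 2.71% to 3.53% of SP/CD127hi and met the 2.33% to 4.35% of SP/CD127-/lo Tregs at its edge. T cell markers summed to 5963 to 8875 CPM in graft, above the 4041 to 4776 CPM of SP/CD127hi Tregs. The part of these in the graft values was not tested.

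**Figure D4:**
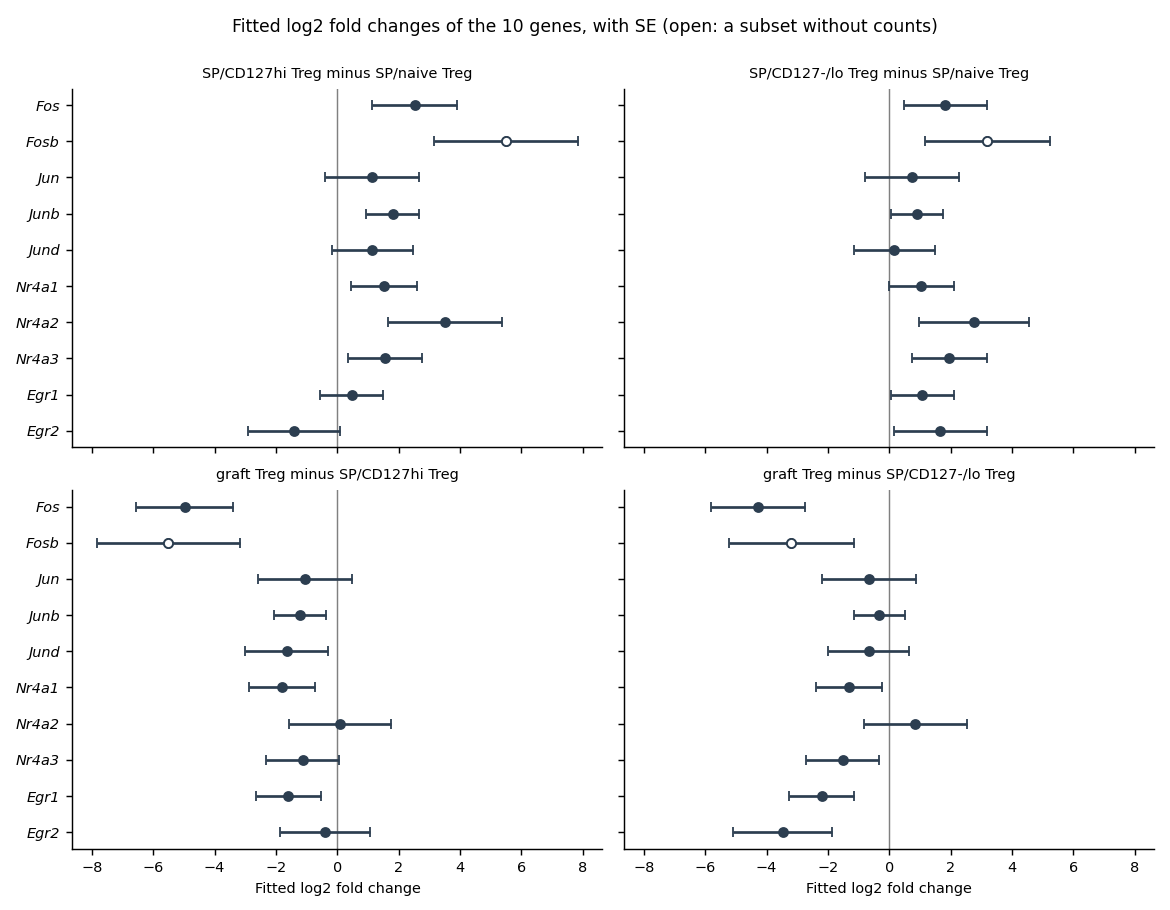
Fitted log2 fold changes with SE (x axis) of the 10 genes (y axis) in 4 pairs, SP/CD127hi and SP/CD127-/lo against SP/naive Tregs and graft Tregs against SP/CD127hi and SP/CD127-/lo Tregs. Open circles mark genes with 0 counts in a subset, whose fitted value is no bound, and most points lie right of 0 in the first 2 panels (medians 1.55 and 1.37) and left of 0 in the others (medians -1.41 and -1.42).

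In the DLN the members showed no common direction. The median was -0.02 in DLN/CD127hi against DLN/CD127-/lo, 0.45 in DLN/CD127hi against DLN/naive and -0.02 in DLN/CD127-/lo against DLN/naive Tregs, beside medians of -0.01, 0.40 and 0.58 over all genes. With Fos at its bound or left out, the last 2 were 0.04 and -0.02. Apart from Nr4a3 in DLN/CD127-/lo against DLN/naive Tregs, the quasi-likelihood test called 0 members. At an unadjusted p under 0.05 were 1, 2 and 3 members, beside 8.75%, 10.6% and 8.79% of all genes. Of all genes 0.418%, 0.951% and 0.355% were called. The likelihood ratio test and DESeq2 added Nr4a3 in DLN/CD127hi against DLN/CD127-/lo Tregs. Macrophage markers summed to 599.6 to 898 CPM in DLN/CD127hi and to 4.20 to 429 CPM in DLN/naive Tregs, and their part was not tested.

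Between tolerant and naive mice, SP/CD45+CD4- cells had 8 of 10 members positive, with a median of 1.41 against 0 over all genes, and Jun, Junb, Fos and Egr1 higher without overlap beside 3.75% of all genes. The CD4+ cells had 5 of 10 positive, a median of 0.05 against -0.23 over all genes, and only Junb higher without overlap, beside 4.45% of all genes. The quasi-likelihood test called 0 members in both, with 2 and 0 at an unadjusted p under 0.05, beside 4.46% and 7.01% of all genes. The likelihood ratio test called 0, and DESeq2 called Nr4a2 in the CD45+CD4- cells. Of all genes 0.0355% and 0.107% were called. The difference between the tolerant effects of the 2 cell types was called for 0 members by the quasi-likelihood test and for 0.0473% of all genes. At an unadjusted p under 0.05 was 1 member (Nr4a2, called by DESeq2), beside 5.14% of all genes.

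Against CD4+ cells, most members had positive fold changes in tolerant spleen Tregs. SP/CD127hi Tregs had 9 of 10 positive against SP/naive CD4+ cells, with a median of 2.21, and 10 of 10 against SP/tolerant CD4+ cells, with a median of 1.16. SP/CD127-/lo Tregs had 9 of 9 against SP/naive CD4+ cells, with Fosb left out since every library of both subsets had at most 3 reads, and a fitted median over all 10 of 1.43. Against SP/tolerant CD4+ cells they had 8 of 10 with a median of 1.29. With Fosb left out for the same reason, SP/naive Tregs had 7 of 9 positive against SP/naive CD4+ cells and graft Tregs 4 of 9. The medians without Fosb were 0.22 and -0.15, and the fitted medians over all 10 were 0.21 and -0.36. Pairs of this kind share the CD4+ libraries. Jund, Junb and Nr4a1 lay above both CD4+ subsets without overlap in SP/CD127hi and in SP/CD127-/lo Tregs. With the strands added, Jund and Junb of SP/CD127-/lo Tregs overlapped SP/tolerant CD4+ cells, in which Jund was then at 18.7, 12.2 and 16.5 CPM, against 18.2 CPM in SP/CD127-/lo replicate 3. Over all genes, 5.76% and 5.35% lay so above SP/naive CD4+ cells and 6.98% and 5.05% above SP/tolerant CD4+ cells. Macrophage markers summed to 145 to 246 CPM in SP/CD127hi and 8.30 to 308.5 CPM in SP/CD127-/lo Tregs. In CD4+ cells they summed to at most 4.12 CPM in SP/naive and 15.5 to 30.2 CPM in SP/tolerant. Of these 4 pairs, only SP/CD127-/lo Tregs against SP/tolerant CD4+ cells overlapped. Of the markers, Lyz2 was called in all 4 pairs. It was at 136.8 ± 77.6 CPM in SP/CD127hi and 113 ± 152.8 CPM in SP/CD127-/lo Tregs (SD, n = 3). SP/naive and SP/tolerant CD4+ cells had 0.106 ± 0.183 and 3.95 ± 6.84 CPM. The part of such cells was not tested.

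The quasi-likelihood test called 0 members in these 6 pairs, with 5 at an unadjusted p under 0.05, beside 6.71% to 10.5% of all genes by pair. The likelihood ratio test called 0 and DESeq2 called Junb in SP/CD127hi Tregs against SP/naive CD4+ cells. Over all genes, 0.422% and 0.469% were called for SP/CD127hi and SP/CD127-/lo Tregs against SP/naive CD4+ cells, 0.324% and 0.284% against SP/tolerant CD4+ cells, 0.264% for SP/naive and 0.619% for graft Tregs against SP/naive CD4+ cells. SP/naive CD45+CD4- against SP/naive CD4+ cells had 1.04% called. There 7 of 10 members were positive, with 0 called by any of the 3 tests. In the quasi-likelihood test 1 (Fos) was at an unadjusted p under 0.05, beside 9.63% of all genes.

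The other genes of the pathway were taken from lists. Of 12 other AP-1 genes, 7 calls were made in 216 tests, 5 higher and 2 lower in the first subset, and all 7 were Maf, a bZIP factor of effector T cells. Maf was at 1111 ± 177.5 CPM (SD, n = 3) in graft, 899.7 ± 189.5 in SP/CD127-/lo and 836 ± 167 in SP/CD127hi Tregs, against 279 ± 106 in SP/naive and 253 ± 97.2 in SP/tolerant CD4+ cells. In graft Tregs, 3 of the 12 genes were positive against SP/CD127hi Tregs, with a median of -0.61 (log2), and 4 of 12 against SP/CD127-/lo Tregs, with a median of 0.00, and 0 were called in either pair. Fosl1 had 0 reads throughout the first pair, and Fosl1, Batf3 and Atf3 throughout the second. These have no direction but enter the counts and medians. Summed CPM of the list overlapped, at 1062 to 1542 in graft, 794.3 to 1138 in SP/CD127hi and 1014 to 1239 in SP/CD127-/lo Tregs.

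Of 26 other early response genes 25 were tested, and 11 calls in 450 tests were all higher. They were Rgs1 in 6 pairs, Ier5 in 3, and Nfkbia and Rgs2 in 1 each. Rgs1, which dampens chemokine receptor signals, was at 1031 ± 348 CPM in graft, 821 ± 490.2 in SP/CD127-/lo, 555 ± 191 in SP/CD127hi and 466 ± 241 in SP/naive Tregs, and at 58.0 ± 12.4 in SP/naive CD4+ cells (SD, n = 3 each). Its log2 fold change against SP/naive CD4+ cells was 4.15 (SE 0.52) in graft Tregs, with an adjusted p of 1.69e-10 in the quasi-likelihood test. Rgs2, another regulator of G protein signaling, was higher in graft than in SP/naive Tregs by 3.42 (SE 0.79), with an adjusted p of 0.0241. Ier5 and Nfkbia, the inhibitor of NF-kB, were called only against SP/naive CD4+ cells.

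Of 22 upstream kinases and factors, 10 calls in 396 tests, 6 higher and 4 lower, all fell on Mef2c, which B cells express at high levels. It was at 603 ± 33.2 CPM in SP/naive CD45+CD4- cells and at 0.0977 to 74.3 CPM by mean in the Treg subsets (SD, n = 3). In SP/CD127hi against SP/naive Tregs it was called with 70 against 2 reads, where the B cell gene Cd79a was also called, with 124 against 0 reads. Summed B cell markers overlapped in that pair, at 5.51 to 85.6 against 1.69 to 48.0 CPM. Of 10 feedback inhibitors of the pathway, such as the DUSP and Sprouty genes, the quasi-likelihood test called 0 in 180 tests. Their summed CPM were 47.2 to 150.7 in SP/CD127hi Tregs. That was below the 175.5 to 204.4 of SP/naive and the 187.7 to 366.4 of SP/CD127-/lo Tregs, and its part in the member levels was not tested. Of 10 heat shock genes 2 calls were made, both Hspd1 lower in DLN/CD127hi Tregs, with 1 read against 201 and 203 in the other DLN subsets. Summed heat shock CPM were 1152 to 1299 in SP/naive, 1575 to 2430 in SP/CD127hi and 1720 to 2738 in SP/CD127-/lo Tregs, without overlap with the naive range, and 1467 to 1515 in graft Tregs. They thus moved with the members in spleen Tregs, while tolerant and naive ranges overlapped in CD45+CD4- cells and in CD4+ cells. Their part in the levels of the members was not tested.

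Over the 24 spleen and graft libraries, log2 CPM of the members varied together weakly. The 45 pairs had a median Pearson r of 0.236, from -0.247 to 0.677, with 35 pairs positive. The closest were Fos and Fosb (0.677), Fosb and Jun (0.665), Jund and Nr4a1 (0.616) and Egr1 and Egr2 (0.615). After the mean of each subset was removed, the median was 0.082, from -0.749 for Jund and Nr4a2 to 0.492 for Egr1 and Egr2, with 28 pairs positive. These values are descriptions over libraries that share pools, depth and scaling.

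**Figure D5:**
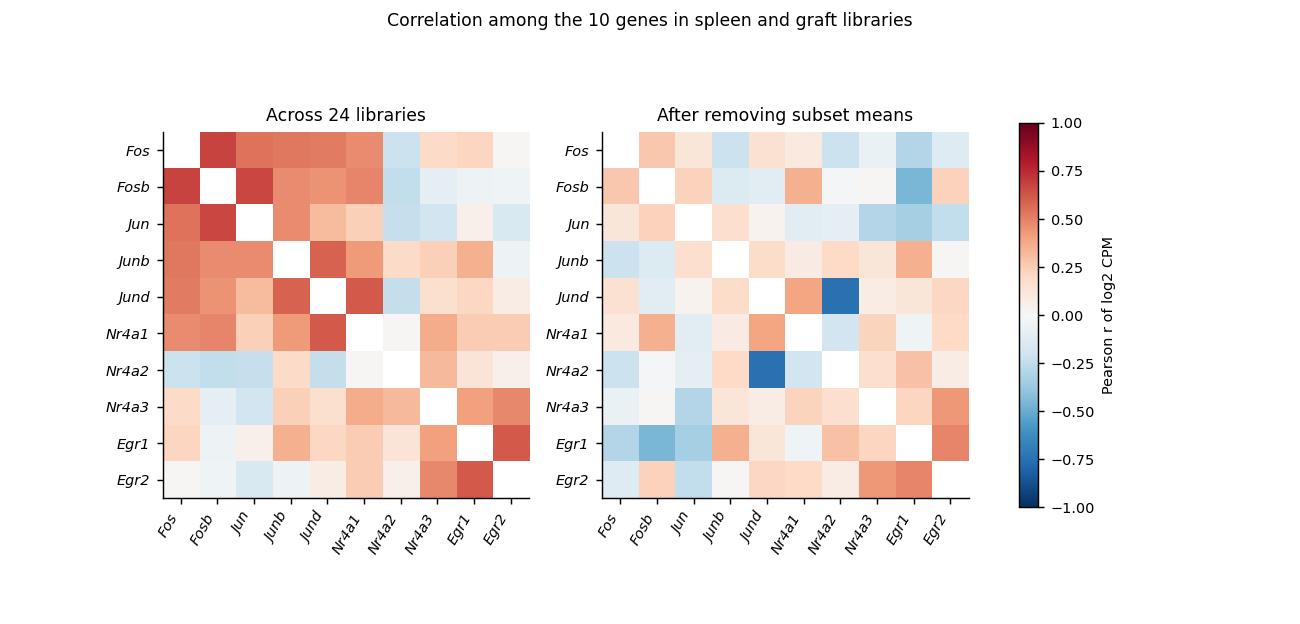
Pearson r of log2 CPM between pairs of the 10 genes (both axes) over 24 spleen and graft libraries, at left across libraries and at right after removal of subset means. Colors run with r, and the median over the 45 pairs falls from 0.236 at left to 0.082 at right.

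Among 4763 other genes with a mean log2 CPM of at least 5, those with the pattern most like each member over the 24 libraries were named. For Fos they were Cybc1 (r = 0.819), Zfp36 (0.816) and Ammecr1l (0.797), of which Zfp36 is itself an early response gene. For Fosb they were Sh2b3 (0.825), Pxk (0.804) and Ptpn6 (0.801), for Jun Macf1 (0.671), Kmt2d (0.671) and Sh2b3 (0.669), for Junb Ptges3 (0.825), Vapa (0.782) and Fam174a (0.772), and for Jund Eef2 (0.850), Brd2 (0.842) and Stk10 (0.841). For Nr4a1 they were Trim27 (0.757), Chtop (0.742) and Ddx21 (0.720), for Nr4a2 Lsm5 (0.705), Dtx3l (0.670) and Zc3h12d (0.657), and for Nr4a3 Sptlc2 (0.681) and Rbm18 (0.640). For Egr1 they were Fundc1 (0.830), Rbm18 (0.737) and Arf6 (0.717), and for Egr2 Ccdc58 (0.733), Spg21 (0.684) and Nsa2 (0.680). Apart from Zfp36, none of these genes is on the lists of early response or AP-1 genes.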

How the data were processed

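Bulk RNA-Seq was made from sorted cells with SMART-Seq and Nextera XT kits and paired-end reads. According to the submitters' processing notes and the methods, the authors checked reads with FastQC, trimmed them with Trim Galore and used STAR for alignment to the mm10 build plus the EGFP sequence, and deposited raw counts per gene without normalization. Tool versions are not given in the sources used here. The methods name HTSeq for the counting, but the layout is that of the gene counts STAR writes. Their column over both strands was used, for 31054 features, without the 4 summary rows. Symbols and positions came from GENCODE vM21 on GRCm38, in which 43 features had no symbol, and promoter windows from RefSeq on GRCm38.p6.

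Libraries were grouped by their labels, 3 to each of 11 subsets. The filter kept the 25347 genes that reached 1 CPM in any library. With TMM factors, a negative binomial model of all 33 libraries with a mean for each subset was fitted with edgeR 4.0.16 and limma 3.58.1 in R 4.3.3, and 18 pairs of subsets, 2 interactions and 2 joint tests were tested by quasi-likelihood, two-sided, with Benjamini-Hochberg adjustment over all genes tested and a threshold of 0.05. Fitted log2 fold changes are printed with their standard error. Levels are CPM scaled by TMM, and likeness used log2 CPM with a prior count of 2. A count of 0 was read as at most 3 counts per library, and folds of few counts have exact 95% intervals, which cover counting error only. Python 3.11.15 with NumPy 2.4.6, pandas 2.3.3, SciPy 1.17.1 and matplotlib 3.10.9 was used for levels, motifs and figures. The tests were tested on simulated data. As alternatives served edgeR's likelihood ratio test, DESeq2 1.42.0, RLE normalization, no filter, at least 10 counts in at least 3 libraries, models of fewer libraries, the replicate number as a block, the sum of the per-strand columns, CPM without TMM, and each library left out in turn. The model of the 9 DLN libraries, the check of sex and the fit with DLN/naive replicate 3 alone were added after seeing the data.

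The 10 genes and the lists were chosen with earlier results of these data known. All 10 genes are named with every library's value, list genes only where they were called (at most 6 per list and pair), and 3 genes of like pattern per member, of which 1 is not reported here. ComBat-Seq, which the authors used, was not applied, since the batch it was given is not named.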

Additional observations from a re-analysis of the deposited data

How the results depend on the processing

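Calls of the 10 genes at an adjusted p under 0.05 depended on the model in the DLN. The 1 call there (Nr4a3, DLN/CD127-/lo against DLN/naive Tregs) was 2 calls, with Nr4a3 in DLN/CD127hi against DLN/CD127-/lo Tregs, under the likelihood ratio test, DESeq2, RLE normalization, no filter and the replicate block, and 0 calls under the stricter filter, the sum of strands, only the compared libraries and only the 9 DLN libraries (the last chosen after seeing the data). With DLN/naive replicate 3 as the only DLN/naive library, also chosen after seeing the data, there was 1 call, Nr4a3 in DLN/CD127hi against DLN/CD127-/lo Tregs. Over the settings without a left-out library, the adjusted p of Nr4a3 was 0.00747 to 0.757 in DLN/CD127-/lo against DLN/naive Tregs and 0.0116 to 0.809 in DLN/CD127hi against DLN/CD127-/lo Tregs. DESeq2 gave 1 call instead of 0 between tolerant and naive Foxp3- cells (Nr4a2), 1 in the interactions (Nr4a2) and 1 between Tregs and CD4+ cells (Junb). The last count was also 1 with the 24 spleen and graft libraries and 2 with only the compared libraries (Junb and Egr2). The joint test of 8 subsets gave 2 calls (Fos and Fosb) and 1 (Fosb) under the stricter filter. It gave 3 with Nr4a2 under the likelihood ratio test, no filter and the replicate block, and 3 with Junb under DESeq2, the 24 libraries and only the compared libraries.

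With each library left out in turn, calls ranged from 0 to 2 in graft pairs (2, both Nr4a3, without graft replicate 2) and from 0 to 2 in DLN pairs (0 without DLN/CD127-/lo replicate 1 or 2). They ranged from 0 to 1 between Tregs and CD4+ cells and from 0 to 1 between CD45+CD4- and CD4+ cells, where the call was Fos without SP/naive CD4+ replicate 2. The range was 2 to 4 in the joint test of 8 subsets (4 without graft replicate 2 or DLN/CD127hi replicate 3), 0 to 1 in that of 4 Treg subsets (Fos without graft replicate 1, the only graft library with Fos reads, Nr4a3 without graft replicate 2) and 0 to 1 in the interactions (Nr4a3 without DLN/CD127hi replicate 2). The log2 fold change of Nr4a2 reversed without DLN/naive replicate 2, which held all its reads, to 3.08 in DLN/CD127hi (range from -8.39) and 2.84 in DLN/CD127-/lo against DLN/naive Tregs (range from -8.43). With DLN/naive replicate 3 alone they were 3.22 and 2.91. For the changes not explained here the cause was not tested.

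Libraries with the same number did not vary together (r from -0.192 to 0.305 over 4277 genes, with every pair over 0.1 in 0 of 18 comparisons), so that the number does not pair them. The replicate block gave 2 DLN calls and changed the calls over all genes from 33 to 61 in graft against SP/naive Tregs. Of the single values under alternatives, 558 kept their direction and side of the threshold, 43 passed it newly, 9 no longer passed it and 4 reversed. Counts of 0 in up to 16 of 33 libraries limit Fosb, Nr4a2 and Fos most.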
